A study of Mus musculus with 14 samples.

Results

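Clone P is a line grown from a single cell of 4T1, a mouse mammary cancer cell line, and is labelled non-intravasating. It was set against the other clones of the same line, which were E and T, labelled intravasating, and I, K and L, labelled non-intravasating like P. Intravasation is the entry of tumour cells into blood vessels. Genomic DNA of each line was bisulfite sequenced in 2 rounds, so that clone P accounts for 2 of the 14 libraries of the series, of which 2 more are from the parental line. The deposited tables hold 1 methylation level per clone, not 1 per round, so P is 1 of 6 values for each region, and the parental line is not analysed here. Each clone is 1 line from 1 cell, so P stands for 1 line only. The levels are fractions between 0 and 1, given without read counts, so the depth behind them is unknown and no interval is given.

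Cytosine methylation in mammals sits mainly at CG dinucleotides. It is low at most CG-rich promoters, high over most of the rest of the genome, and high at many promoters of genes used only in the germ line or in one tissue. A hypomethylated region (HMR) is a stretch with less methylation than its surroundings. At imprinted genes the copies inherited from the mother and the father differ in methylation, and in cells of a female one X chromosome is inactivated with its CG-rich promoters methylated. In cancer cell lines methylation patterns pass to daughter cells with some drift, so lines grown from single cells can differ at individual promoters.

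The promoters at which P stood furthest from the other clones mostly had few CG dinucleotides near the gene start. Windows of 5 of them are shown here. The windows run from 250 bases before to 50 bases after the gene start, from RefSeq on GRCm38.p6; the sources used here do not give the limits of the deposited promoter regions, which may differ. Capitals mark each CG. The windows are Opn1mw at chrX:74127216-74127515 (plus strand), Olfr498 at chr7:108465076-108465375 (plus), Vmn1r41 at chr6:89740638-89740937 (plus), Ssxb6 at chrX:8548206-8548505 (minus) and Zdhhc15 at chrX:104671015-104671314 (minus).
Opn1mw: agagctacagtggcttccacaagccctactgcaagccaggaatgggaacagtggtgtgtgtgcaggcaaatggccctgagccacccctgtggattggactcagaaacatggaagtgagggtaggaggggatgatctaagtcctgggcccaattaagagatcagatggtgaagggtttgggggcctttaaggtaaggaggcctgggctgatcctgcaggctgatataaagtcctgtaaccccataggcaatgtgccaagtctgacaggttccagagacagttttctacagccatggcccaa
Olfr498: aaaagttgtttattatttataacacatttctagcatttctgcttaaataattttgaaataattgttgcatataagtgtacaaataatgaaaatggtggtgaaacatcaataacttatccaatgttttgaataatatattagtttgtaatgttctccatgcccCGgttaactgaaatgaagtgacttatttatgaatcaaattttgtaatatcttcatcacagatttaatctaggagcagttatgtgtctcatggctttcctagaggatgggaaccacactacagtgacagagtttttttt
Vmn1r41: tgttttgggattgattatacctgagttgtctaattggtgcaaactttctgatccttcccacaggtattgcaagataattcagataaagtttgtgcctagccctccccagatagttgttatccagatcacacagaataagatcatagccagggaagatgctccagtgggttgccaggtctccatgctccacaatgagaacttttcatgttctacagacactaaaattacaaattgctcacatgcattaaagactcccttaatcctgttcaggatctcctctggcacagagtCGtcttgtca
Ssxb6: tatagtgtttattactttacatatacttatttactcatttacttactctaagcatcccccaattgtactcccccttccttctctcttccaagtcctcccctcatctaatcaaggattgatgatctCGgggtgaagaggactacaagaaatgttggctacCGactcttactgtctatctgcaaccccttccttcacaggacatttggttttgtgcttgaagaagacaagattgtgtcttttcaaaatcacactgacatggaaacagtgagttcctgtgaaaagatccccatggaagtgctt
Zdhhc15: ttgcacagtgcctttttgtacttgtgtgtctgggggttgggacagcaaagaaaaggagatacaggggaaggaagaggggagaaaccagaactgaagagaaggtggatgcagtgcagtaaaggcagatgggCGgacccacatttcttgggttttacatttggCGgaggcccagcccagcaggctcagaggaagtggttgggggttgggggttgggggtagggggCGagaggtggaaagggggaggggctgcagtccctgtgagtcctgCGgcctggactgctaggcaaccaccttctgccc
They hold 0, 1, 1, 2 and 4 CG in that order. A level is listed for Opn1mw in each clone although its window holds no CG, so that level does not rest on CG in this window. Of all windows matched to a promoter, 5.60% hold no CG and 28.8% hold 4 or fewer.

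Among the microRNA genes, P stood apart at Mir1912 and Mir880, both on chromosome X. Their mature products are shown from RefSeq on GRCm38.p6 with the seed, bases 2 to 8 from the 5′ end, in capitals. Mir1912 lies at chrX:147009493-147009514 (plus strand) for the 3p product, and Mir880 at chrX:66800540-66800561 and chrX:66800577-66800597 (minus strand) for its 3p and 5p products.
mmu-miR-1912-3p: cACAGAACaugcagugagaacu
mmu-miR-880-3p: uACUCCAUccucucugaguaga
mmu-miR-880-5p: uACUCAGAuugauaugaguca
The 3 seeds differ from each other.

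Over promoters, where only I was higher, and over autosomal HMRs, P was neither the highest nor the lowest clone by mean level. Its mean level over 21965 promoters was 0.406, against 0.393 ± 0.0185 in the other clones (SD, n = 5), which ran from 0.369 in L to 0.412 in I. The difference of 0.0127 had an exact permutation p of 0.667, two-sided, where the smallest p that 1 clone against 5 allows is 0.167. Over 97247 autosomal HMRs the mean was 0.161 in P, against 0.152 ± 0.0351 in the others (SD, n = 5, exact permutation p = 0.833), and without clone L the difference of 0.00925 turned to -0.00104. P lay within the range of the others in both. The level of P at each region was also set against the median of the other clones. Its mean absolute deviation was 0.0336 over promoters and 0.0540 over autosomal HMRs, the smallest that any of the 6 clones had against its own 5 others; the next smallest were 0.0340 in E over promoters and 0.0576 in K over HMRs.

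P lay above all 5 other clones at 19.8% of promoters and below all of them at 8.19%. That excess of high values was larger where promoters were more methylated. At promoters whose median over the other clones was between 0.8 and 1, P was the highest clone at 23.5% and the lowest at 2.28%, whereas at those between 0 and 0.05 it was the highest at 17.2% and the lowest at 13.0%. Once each clone was centred on its own mean, the shares over all promoters were 12.8% above and 14.6% below, so which direction was more frequent depended on that shift.

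A promoter was counted as standing apart where P lay beyond each of the other 5 clones by at least 0.2. P was above at 10 promoters, 0.0455% of the 21965, and below at 2, 0.00911%. Both numbers are descriptions with no test. The total of 12 was the smallest of the 6 clones, the others having 17 in I, 17 in K, 21 in E, 31 in T and 37 in L when each was set against its own 5 others. After centring, P was above at 8 (0.0364%) and below at 4 (0.0182%). The lowest member counted as above was 5530400C23Rik with a gap of 0.205, and the highest just outside was Tmc4 with 0.185; on the low side Gm10922 with 0.214 was inside and Olfr1202 with 0.189 outside.

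**Figure D1:**
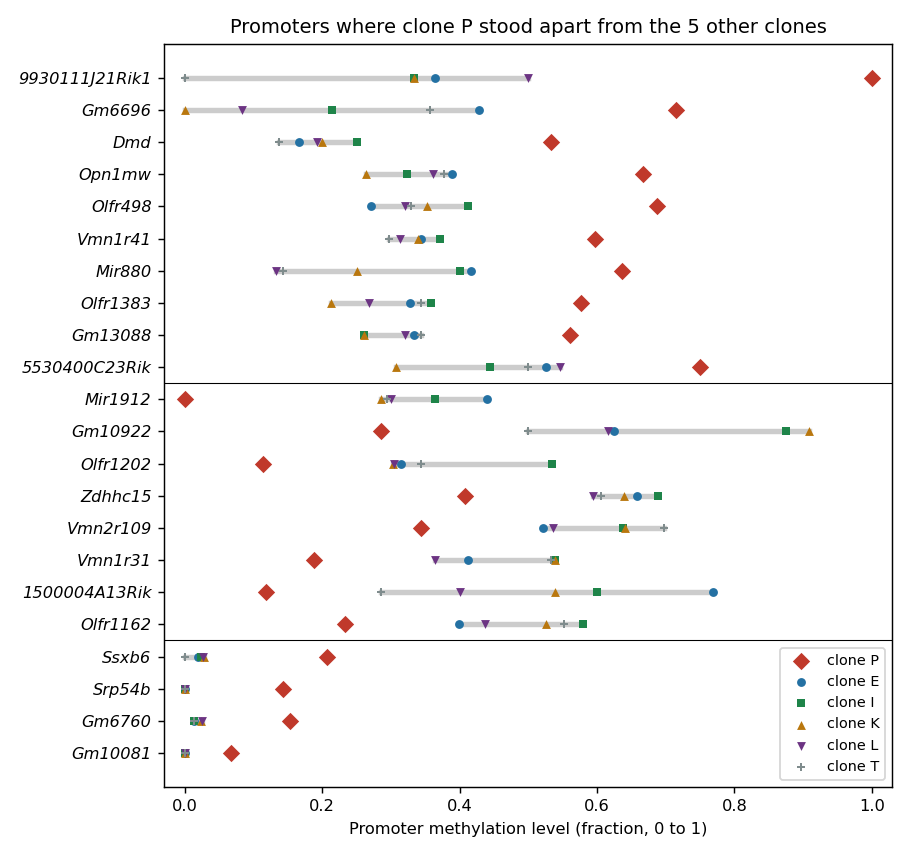
Promoter methylation level (x axis, fraction from 0 to 1) in clone P (red diamonds) and in the 5 other clones, with 1 row per promoter and a grey bar over the range of the others; the upper block has P above, the middle block P below by at least 0.166, and the lower block the 4 promoters called higher by limma. P lies outside the grey bar in each row, from 1.00 at 9930111J21Rik1 to 0 at Mir1912.

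The dystrophin gene Dmd, whose protein anchors the cytoskeleton of muscle fibres to the cell membrane, was at 0.533 in P, against 0.167 in E, 0.250 in I, 0.2 in K, 0.192 in L and 0.136 in T. Opn1mw, the gene of a cone opsin of the retina, was at 0.667 in P, against 0.389 in E, 0.324 in I, 0.263 in K, 0.361 in L and 0.378 in T. Both lie on chromosome X, and in both the 5 other clones kept close together. The olfactory receptor gene Olfr498 was at 0.687 in P, against 0.271 in E, 0.413 in I, 0.352 in K, 0.321 in L and 0.329 in T. The vomeronasal receptor gene Vmn1r41, of a family that detects pheromones, was at 0.597 in P, against 0.344 in E, 0.371 in I, 0.339 in K, 0.313 in L and 0.298 in T. These receptors are used in sensory neurons of the nose. The 5 other clones had an SD of 0.0286 at Vmn1r41, and P was 0.264 above their mean. None of these 4 passed the limma test across all promoters (adjusted p between 0.372 for Dmd and 0.876 for Vmn1r41). When limma was run only on promoters ranging over 0.1 or more, Dmd and Olfr498 passed and the other 2 did not. That range included P itself, so the value of P could bring a promoter past the filter. These promoters were also picked for the gap of P, so calls under the filter are no separate support.

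The remaining promoters on the high side were Mir880, Olfr1383, Gm13088, 5530400C23Rik, Gm6696 and 9930111J21Rik1. Mir880 was at 0.636 in P, against 0.417 in E, 0.4 in I, 0.250 in K, 0.133 in L and 0.143 in T, so that its 5 other clones were themselves widely spread. 9930111J21Rik1 had the largest gap, at 1.00 in P, against a highest other value of 0.5 in L and a lowest of 0 in T. Gm6696 was at 0.714 in P, against values between 0 in K and 0.429 in E. Olfr1383 was at 0.577 in P and between 0.212 and 0.358 in the others, and Gm13088 at 0.560 in P and between 0.261 and 0.344. With that range filter in limma, 9930111J21Rik1, Gm6696 and Mir880 were also called, under the same limits. The SD of the 5 other clones was wide at these, at 0.184, 0.180 and 0.136 in that order. Levels of exactly 0 or 1 in these promoters cannot be given an error, since no coverage is known.

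On the low side Mir1912, whose hairpin lies within the serotonin receptor gene Htr2c, was listed at 0 in P, against 0.440 in E, 0.364 in I, 0.286 in K, 0.3 in L and 0.294 in T. It was the lowest of the 6 clones by 0.286. Gm10922 was at 0.286 in P and between 0.5 in T and 0.909 in K. Just under the gap of 0.2, the palmitoyltransferase gene Zdhhc15 was at 0.408 in P, against 0.658 in E, 0.688 in I, 0.639 in K, 0.595 in L and 0.606 in T. The SD of the 5 others was 0.0382 there and P lay 0.229 below their mean (limma adjusted p = 0.999). Receptor genes filled much of the rest: Olfr1202 was at 0.113 in P and at 0.302 or more in the others, Vmn2r109 at 0.344 and 0.521 or more, Vmn1r31 at 0.188 and 0.364 or more, and Olfr1162 at 0.233 and 0.399 or more. 1500004A13Rik was at 0.118 in P, with the others spread between 0.286 and 0.769. In limma with the range filter, Mir1912, Gm10922 and 1500004A13Rik were called lower in P, again with P itself in the filtered range.

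In limma, which tested P against the mean of the 5 other clones over all promoters, 4 promoters passed an adjusted p of 0.05, all of them higher in P (0.0182% of those tested). None was called lower (0%). At an unadjusted p under 0.05 there were 680 promoters, 3.10% of those tested and fewer than the 5% that the threshold allows by itself. Of these 575 were higher in P, and after centring 326 of 530. With 1 value for P, this test takes its spread from the other clones and assumes that P varies like them. For limma over promoters, centring was on the median of each clone, not on its mean. Ssxb6, of the SSX family expressed in testis, was at 0.207 in P, against 0.0196 in E, 0.0238 in I, 0.0278 in K, 0.0260 in L and 0 in T (limma adjusted p = 0.00165). Gm6760 was at 0.153 in P, against 0.0137 in E, 0.0135 in I, 0.0238 in K, 0.0244 in L and 0.0130 in T (limma adjusted p = 0.00186). These lie on chromosome X, and P was higher than each of the 5 others in both. Srp54b, a gene for a subunit of the signal recognition particle that has close copies in the mouse genome, was at 0.143 in P and at 0 in each of the others (limma adjusted p = 0.000330). Gm10081 was at 0.0667 in P and at 0 in each of the others (limma adjusted p = 0.0186). Reads from near copies of Srp54b could have been assigned to it or lost, which the table does not show. None of these 4 was among the 12 promoters called with the range filter, which left Gm10081 out of the test. The 4 calls were low levels against a spread near or at 0, and none passed when the variance was modelled without a mean trend or when each clone was centred. Gm10081 also lost its call when any 1 of the other clones was left out (limma adjusted p of 0.0526 or more).

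With the gap lowered to 0.1, P was above all others at 113 promoters, 0.514% of 21965, and below at 21, 0.0956%. Of the 113, 106 had a level above 0 in all 6 clones. Olfactory and vomeronasal receptor genes made up 25 of the 113 (22.1%) and 7 of the 21 (33.3%), beside 6.27% of all promoters. Their share among the lone promoters of the other clones was not counted, so it cannot be called particular to P. Chromosome X held 21 of the 113 (18.6%) and 5 of the 21 (23.8%), beside 4.17% of all promoters. Put the other way, P was above by 0.1 at 2.29% of X promoters and 0.440% of autosomal ones. The same was seen with other clones taken as the lone one: E was above at 2.40% of X promoters and 0.535% of autosomal ones, and I at 2.18% and 0.788%. L, in contrast, was above at 0.328% and below at 5.02% of X promoters, with 0.282% and 2.38% of autosomal ones.

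The CG content of these promoters was counted in the RefSeq windows, which matched 11848 promoters. Of the 65 matched promoters with P above by 0.1, 48 held 3 CG or fewer (73.8%), with a median of 2. Of the 11 with P below, 8 did (72.7%), with a median of 1. Among all matched promoters 24.9% held 3 or fewer and the median was 14, and among the 6314 whose median level over the others was between 0.1 and 0.7 the share was 34.0% and the median 9. Lone promoters of the other clones were also poor in CG, with 79.1% of those above in K and 78.8% of those above in E holding 3 or fewer, but 20% of those above in L. Where a region holds few CG, its level rests on few cytosines, but these windows may differ from the deposited regions. Whether this accounts for the gaps was not tested.

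**Figure D2:**
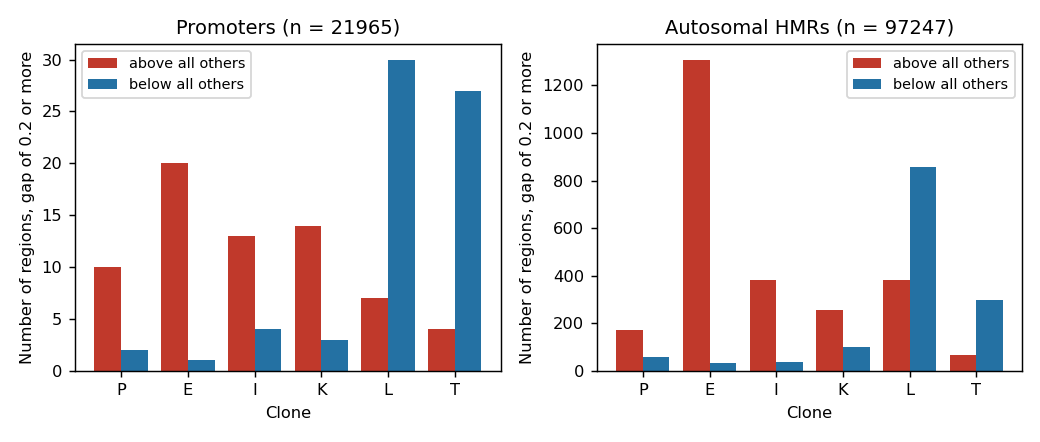
Number of promoters (left, of 21965) and autosomal HMRs (right, of 97247) at which each clone lay above (red) or below (blue) all 5 others by 0.2 or more. P, at the left of each panel, has the smallest total in both, with 12 promoters and 227 HMRs.

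Lists of genes for cell types and pathways were described by how often P was the highest or the lowest of the 6 clones, beside 19.8% and 8.19% over all promoters. Those shares over all promoters changed with promoter level, and the lists were not matched for level, before or after centring. No member of any list was called by limma. Mesenchymal genes had P highest at 15 of 37 promoters (40.5%) and lowest at 2, with a mean level of 0.512 in P, against 0.491 over the others, which ran from 0.471 in T to 0.505 in I. After centring, P was highest at 10 of 37 (27.0%), beside 12.8% over all promoters. Members included Snai1, a repressor of epithelial genes, at 0.168 in P and between 0.0795 and 0.110 in the others. Zeb2 was at 0.950 in P and between 0.898 and 0.930 in the others, and Mmp9, a matrix metalloproteinase gene, at 0.591 and between 0.386 and 0.574. The hyaluronan receptor gene Cd44 went the other way, at 0.0596 in P and between 0.0806 and 0.177 in the others.

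Cytokine and chemokine genes had P highest at 15 of 44 promoters (34.1%) and lowest at 1; after centring P was highest at 12 (27.3%). Ccl20 was at 0.751 in P and between 0.588 and 0.712 in the others, and Il33, an alarmin of epithelial cells, at 0.482 and between 0.374 and 0.444. The genes of Il4 and Il5, cytokines of type 2 immunity that neighbour each other on chromosome 11, both had P highest by 0.0254 or less. Keratin-associated protein genes, used in hair, had P highest at 14 of 42 (33.3%) and the largest median shift of the lists, with P 0.0465 above the median of the others, beside 0.00774 over all promoters. Krtap4-2 was at 0.549 in P and between 0.302 and 0.453 in the others, and Krtap4-9 at 0.798 and between 0.584 and 0.711. P was lowest at 3, among them Krtap5-5 at 0.164 in P and between 0.256 and 0.451 in the others. After centring P was highest at 12 of 42 (28.6%) and lowest at 5. Major urinary protein genes stood at the other end, with P lowest at 5 of 17 (29.4%) and at 7 after centring, with a median shift of -0.0397; these genes are near copies of each other and their reads may not be separable.

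**Figure D3:**
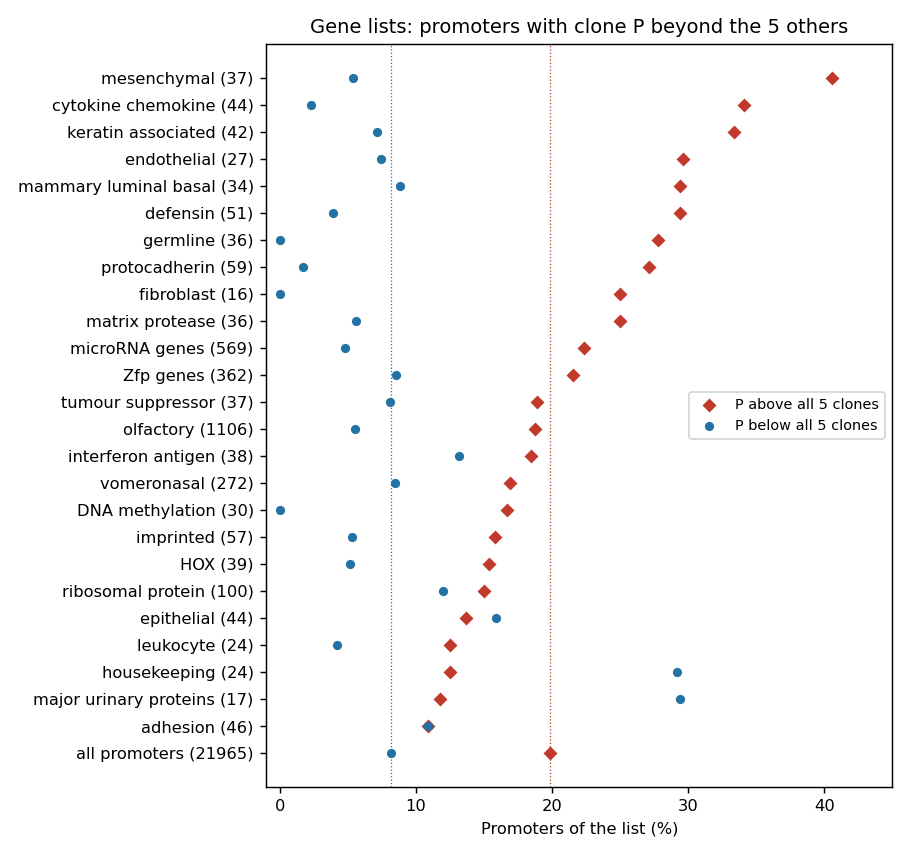
Share of the promoters of each gene list (x axis, %) at which clone P lay above (red diamonds) or below (blue circles) all 5 other clones by any amount, with the number of promoters in brackets; dotted lines mark the shares over all promoters, 19.8% above and 8.19% below. Mesenchymal genes had the highest share above (40.5%), and adhesion genes had the lowest (10.9%).

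Epithelial genes had P highest at 6 of 44 promoters (13.6%) and lowest at 7 (15.9%), or at 6 and 11 after centring. Krt8, a keratin of simple epithelia, was at 0.239 in P, against 0.0900 in E, 0.154 in I, 0.158 in K, 0.0781 in L and 0.113 in T. The tight junction gene Tjp3 (ZO-3) was at 0.572 in P, against 0.393 in E, 0.346 in I, 0.416 in K, 0.393 in L and 0.406 in T. P was the highest clone at both, but neither passed limma (adjusted p = 0.999). Levels at the E-cadherin gene Cdh1 and at Epcam, which mark epithelial cells, were 0.0702 and 0.199 in P and lay inside the ranges of the others (0.0375 to 0.120 for Cdh1, 0.131 to 0.208 for Epcam). Vim, an intermediate filament gene of mesenchymal cells, was at 0.00629 in P and at 0.0180 or less in the others. The leukocyte marker Ptprc was at 0.824 in P and the endothelial marker Pecam1 at 0.883, also inside the ranges of the others (0.708 to 0.854 and 0.812 to 0.888). Over whole lists of markers of other cell types P was also inside the range of the others, with mean levels of 0.633 over 24 leukocyte promoters (others 0.563 to 0.655), 0.586 over 27 endothelial ones (0.539 to 0.595) and 0.667 over 16 fibroblast ones (0.609 to 0.671). Promoter levels alone give no cell type, and these values do not set P apart from the other clones.

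In the adhesion list P was highest at 5 of 46 and lowest at 5 (10.9% each), or at 2 and 8 after centring. The neural adhesion gene L1cam, on chromosome X, was at 0.290 in P, against 0.515 in E, 0.521 in I, 0.532 in K, 0.418 in L and 0.570 in T. Among interferon and antigen presentation genes P was highest at 7 of 38 (18.4%) and lowest at 5 (13.2%), or at 3 and 8 after centring. The class I genes H2-K1 and H2-D1 had P highest, at 0.284 and 0.429 in P, with the others at most 0.226 and 0.393. The antiviral gene Mx1 had P lowest, at 0.253 in P and between 0.301 and 0.444 in the others, and so did Oas2, at 0.583 and between 0.603 and 0.714. Mammary genes had P highest at 10 of 34 (29.4%), or at 7 (20.6%) after centring, including both promoters of Trp63, a basal cell factor, at 0.925 and 0.924 in P, against 0.879 or less in the others. The basal keratin gene Krt5 had P lowest, at 0.573 in P and between 0.613 and 0.742 in the others. The serine protease inhibitor genes Serpine2 and Slpi had P inside the range of the others, at 0.323 in P and between 0.229 and 0.611 for Serpine2, and at 0.673 in P and between 0.579 and 0.690 for Slpi.

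P was highest at 10 of 36 germline promoters (27.8%) and lowest at none, where levels were high throughout, at a mean of 0.798 in P and between 0.741 and 0.801 in the others. Among all promoters whose median over the other clones was between 0.8 and 1, P was highest at 23.5% and lowest at 2.28%. Between 0.6 and 0.8 these shares were 22.1% and 3.97%. All 3 promoters of Tdrd1, which takes part in silencing of transposons in the germ line, had P highest, at 0.782, 0.921 and 0.925, against at most 0.779, 0.906 and 0.905. Defensin genes, which encode antimicrobial peptides, had P highest at 15 of 51 (29.4%), and clustered protocadherin genes, which give neurons their surface identity, at 16 of 59 (27.1%). Matrix protease genes had P highest at 9 of 36 (25%), including Plau, the urokinase gene, at 0.228 in P and between 0.0719 and 0.199 in the others. Housekeeping genes, with a mean of 0.122 in P, had P highest at 3 of 24 and lowest at 7 (29.2%). Ribosomal protein genes had P highest at 15 of 100 and lowest at 12. Among all promoters with a median over the others between 0 and 0.05, P was highest at 17.2% and lowest at 13.0%. The receptor families had P highest at 207 of 1106 olfactory promoters (18.7%) and at 46 of 272 vomeronasal ones (16.9%), beside their 25 of 113 among gaps of 0.1. DNA methylation genes had P highest at 5 of 30 (16.7%) and lowest at none, and HOX genes at 6 of 39 (15.4%) and 2. After centring, beside 12.8% over all promoters, P was highest at 22.2% of germline, 23.5% of defensin, 16.9% of protocadherin, 11.1% of matrix protease, 17.2% of olfactory, 15.1% of vomeronasal, 13.3% of DNA methylation and 12.8% of HOX promoters. It was highest at 1 and lowest at 5 of the 24 housekeeping promoters, and highest at 9 and lowest at 16 of the 100 ribosomal protein promoters.

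Among imprinted genes P was highest at 9 of 57 promoters (15.8%) and lowest at 3, or at 6 and 9 after centring. Impact, the gene of a regulator of the amino acid starvation response, was at 0.936 in P, against 0.791 in E, 0.712 in I, 0.804 in K, 0.780 in L and 0.744 in T. It was the only imprinted promoter with P beyond all others by 0.1 (limma adjusted p = 0.999). Mkrn3 was at 0.790 in P and between 0.594 and 0.736 in the others, and the second Snrpn promoter at 0.295 in P and between 0.371 and 0.5. Igf2r, the receptor gene that is expressed from the maternal copy in mouse, separated P together with K from the rest. It was at 0.306 in P and 0.373 in K, against 0.649 in E, 0.799 in I, 0.657 in L and 0.668 in T. Airn, the antisense transcript from the same locus whose promoter is methylated on the maternal copy in mouse, was at 0.941 in P and 0.940 in K, against 0.881 in E, 0.792 in I, 0.808 in L and 0.787 in T. Airn was singled out after its values were seen.

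P was closest to clone K. The mean absolute difference over promoters was 0.0392 to K, 0.0404 to E, 0.0410 to I, 0.0476 to T and 0.0546 to L, and the pair of P and K ranked 1 of the 15 pairs of clones. Pearson's r across promoters ran from 0.976 with L to 0.982 with K; it is across promoters of the same 6 lines, which are no replicates. Over autosomal HMRs the distance was 0.0658 to K, 0.0685 to I, 0.0723 to T, 0.0753 to E and 0.0820 to L, and the pair with K ranked 2 of 15. K stayed nearest by 1 minus Pearson r, after centring, and over regions above 0 in all 6 clones by mean absolute difference. By Pearson r over the autosomal HMRs above 0 in all 6 clones, I was nearest at 0.635 and K next at 0.633. The difference between the nearest clones was small beside the distances themselves. Over promoters E, intravasating, was nearer to P than I and L, which share the label of P. Over autosomal HMRs K and I, with the label of P, were nearer than T and E, while L, also with that label, was farthest. A link between distance and the label of intravasating capacity was not tested.

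K was the nearest clone to P on 14 of the 19 autosomes over promoters, E on 3 and I on 2. Over HMRs K was nearest on 15 of the 19, I on 3 and T on 1. On chromosome X the order over 916 promoters differed, with E nearest at 0.0614, then I at 0.0657, K at 0.0675, T at 0.0717 and L at 0.0800. All distances on X were larger than over the autosomes, where that to K was 0.0380.

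**Figure D4:**
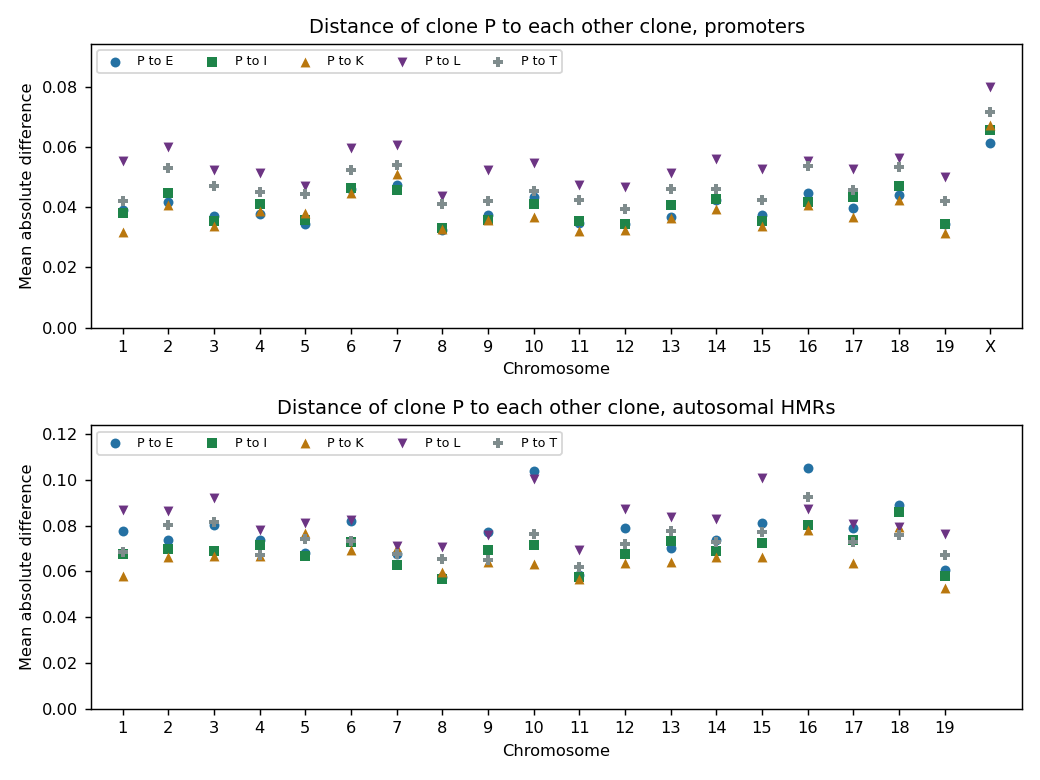
Mean absolute difference in methylation level (y axis, fraction) between clone P and each other clone on each chromosome, over promoters (top) and autosomal HMRs (bottom). K (orange triangles) is nearest on 14 of 19 autosomes in the top panel and on 15 of 19 in the bottom panel, while on X clone E is nearest at 0.0614.

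P and K together lay beyond the other 4 clones by 0.1 at 26 of the 21965 promoters, 23 above and 3 below. The totals of the other pairs with P were 27 with L (9 above and 18 below), 24 with E (20 and 4), 22 with I (20 and 2) and 13 with T (5 and 8). Over the 97247 autosomal HMRs the totals were 1026 with E, 614 with K, 587 with L, 546 with I and 298 with T. K was thus not the clone with the highest total in either. Besides Igf2r, the low side held the receptor gene Olfr295, at 0.298 in P and 0.293 in K, against 0.477 or more in the others, and the placental gene Tpbpb, at 0.156 in P and 0.0488 in K, against 0.279 or more. On the high side the sperm hyaluronidase gene Spam1 was at 0.5 in P and 0.455 in K, against 0.244 or less in the others. Zscan4f, of a family active in early embryos, was at 0.833 in P and 0.857 in K, but its other clones were spread from 0 in I to 0.667 in T. Il2ra, the interleukin 2 receptor alpha gene, was at 0.655 in P and 0.621 in K, against 0.473 or less. Myot, a muscle gene, was at 0.557 in P and 0.481 in K, against 0.333 or less, and Olfr1269 at 0.4 in P and 0.483 in K, against 0.244 or less. Smaller gaps on the low side were those of Vmn2r100, at 0.129 in P and 0.0345 in K, against 0.214 or more, and of Tlr5, the flagellin receptor gene, at 0.392 in P and 0.360 in K, against 0.475 or more.

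Over autosomal HMRs P was above all others by 0.2 at 170 (0.175% of 97247) and below at 57 (0.0586%). After centring the counts were 153 (0.157%) and 67 (0.0689%), and at a gap of 0.1 without centring 1721 (1.77%) and 536 (0.551%). By any amount, P was the highest clone at 11.7% of autosomal HMRs and the lowest at 5.05%, or at 12.6% and 11.9% after centring. The total of 227 at a gap of 0.2 was again the smallest of the 6 clones, beside 354 in K, 366 in T, 419 in I, 1240 in L and 1341 in E. The HMRs with P above had a median level of 0.458 in P and 0.0925 over the others, and at 38 of them all 5 others were at 0. The 57 with P below had P itself at 0 in 36, with a median over the others of 0.368. They were shorter, with a median of 2544 bp and 28.1% under 1 kb, beside 4974 bp and 3.30% over all autosomal HMRs; those with P above had a median of 4120.5 bp and 5.29% under 1 kb. Coverage is not given, and its part in levels of exactly 0 was not tested.

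The HMR coordinates are as in the deposited table. 598 autosomal HMRs on 10 chromosomes end past the last gene of GRCm38, so their build was not established and HMRs were not assigned to genes. Among HMRs above 0 in all 6 clones, that at chromosome 5, 28291094 to 28295292, was at 0.533 in P, against 0.214 in E, 0.182 in I, 0.222 in K, 0.208 in L and 0.125 in T. That at chromosome 16, 19198721 to 19204018, was at 0.5 in P, against 0.185 in E, 0.194 in I, 0.139 in K, 0.127 in L and 0.129 in T. In both the other clones lay close together, at 0.222 or less. A 216 bp HMR on chromosome 11 was at 1.00 in P, with the others between 0.25 and 0.6. On the low side, the HMR at chromosome 17, 72560818 to 72562709, was at 0.101 in P, against 0.542 in E, 0.682 in I, 0.422 in K, 0.399 in L and 0.380 in T. A 4653 bp HMR at chromosome 1, 149576249 to 149580902, was listed at 0 in P and between 0.445 and 0.703 in the others. P was the lowest clone at both. Short HMRs on chromosomes 10 (248 bp), 4 (427 bp), 12 (103 bp) and 9 (693 bp) had P at 0.25, 0.1, 0.375 and 0.333 in that order, with the others at 0.532, 0.369, 0.643 and 0.6 or more.

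In limma over all 101564 HMRs, 468 were called higher in P (0.461%) and 2 lower (0.00197%), at an adjusted p under 0.05. On the logit scale the limma calls were 445 higher and 48 lower, and 1317 of the 2795 HMRs with an unadjusted p under 0.05 were higher in P, beside 2468 of 2994 on the scale of levels. Of the 468, 433 were autosomal, and 405 of those had all 5 other clones at exactly 0, where the spread among them was 0. Over the autosomal calls the levels in P were low, with a median of 0.0789 and a highest value of 0.417, at chromosome 7, 31955530 to 31957578. None was called after centring, when HMRs were required to range over 0.1 or more, or among those above 0 in all 6 clones, where 1142 had an unadjusted p under 0.05 in limma and 960 of them were higher in P. HMRs above 0 in 1 clone alone were found for every clone, and P with 405 had fewer than E with 1844, L with 1159, and I and T with 523 each. Only K had fewer, with 302. Every such autosomal HMR of P was called, so these calls restate the pattern of 0 in the others. The 2 called lower were a 752 bp HMR on chromosome 8 at 0 in P and between 0.0476 and 0.0588 in the others (limma adjusted p = 0.0476), and a 555 bp HMR on chromosome 18 at 0 in P and between 0.417 and 0.464 in the others (limma adjusted p = 0.00839).

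Chromosome 18 had the largest share of HMRs at exactly 0 in P, 47.7% of 3815, against 45.5% in K, 42.9% in T, 39.1% in I, 33.5% in L and 32.6% in E. Over all autosomes the share was 32.0% in P, between those of 24.8% in E and 34.8% in K. P had the highest share of the 6 clones on 3 chromosomes, 1, 17 and 18. Its mean level on chromosome 18 was 0.123, against 0.130 over the others, whereas on 16 of the 19 autosomes P was above the mean of the others; the other exceptions were chromosomes 10 and 17. Of the HMRs standing apart in P by 0.2, 22 above and 9 below lay on chromosome 18. They were 13.7% of the 227, beside 3.92% of all autosomal HMRs. Of the HMRs standing apart in each other clone, the share on chromosome 18 was 9.79% in I, 7.63% in K, 4.64% in T, 3.43% in E and 2.74% in L. In 1 Mb windows with at least 5 HMRs, P had the lowest median of the 6 clones in 35 of 2341 windows, and 11 of these were on chromosome 18. L was lowest in 904 windows, 27 of them on chromosome 18, T in 479 with 6 there, and K in 142 with 2 there. I was lowest in 35 and E in 7, with 0 there for both. The share of all windows that lie on chromosome 18 was not counted. The cause was not tested.

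**Figure D5:**
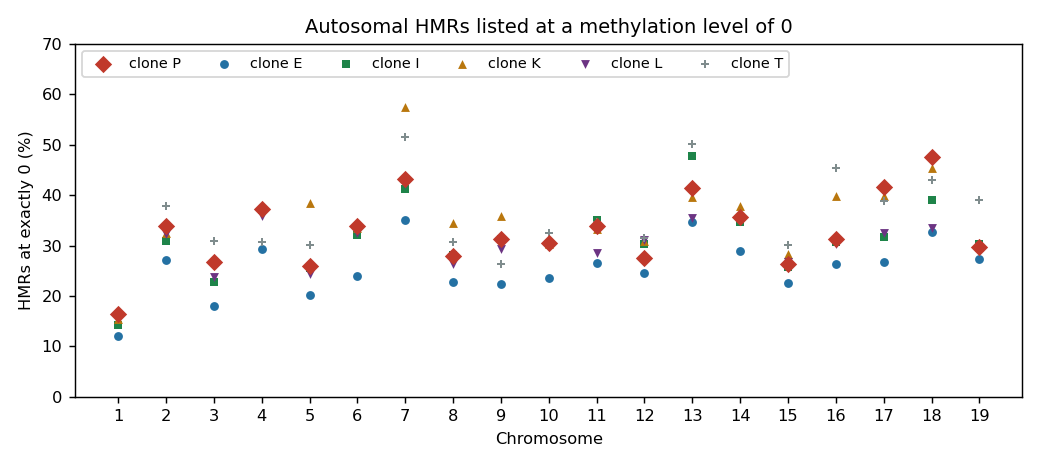
Share of HMRs on each autosome at a level of exactly 0 (y axis, %) in clone P (red diamonds) and the 5 other clones. P is the highest clone on chromosomes 1, 17 and 18, and its highest share is 47.7% on chromosome 18.

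Windows with the largest shift of P from the median of the others had at least 1 other clone within 0.1 of P or beyond it. On chromosome 8 the windows at 6 to 7 Mb and 7 to 8 Mb had medians of 0.423 and 0.346 in P, with E close to P at 0.401 and 0.321 and the other 4 clones at 0.258 or less. The window at 93 to 94 Mb of chromosome 9 was at 0.252 in P, with L at 0.202 and K at 0.275 beside it and E at 0.618. On chromosome 10 the window at 65 to 66 Mb was at 0.477 in P, below E at 0.638 and I at 0.553 and above K at 0.291. On chromosome 9 the window at 82 to 83 Mb was at 0.143 in P, the same as in L, with E at 0.631. In the window at 118 to 119 Mb of chromosome 13, with 6 HMRs, P was lowest at 0.0938, next to T at 0.122 and the others at 0.249 or more. Over all windows P was above every other clone by 0.1 in 2 and below in none, whereas E was above in 127 and L below in 53.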

How the data were processed

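Whole-genome bisulfite libraries of 6 4T1 clones and the parental line were sequenced in 2 rounds as 76 nt paired-end reads, per the labels' protocols. The authors deposited promoter and HMR tables whose values are fractions (methylation levels, 0 to 1), with 1 column per clone. The sources used here do not give the aligner, the caller, the promoter limits or how rounds were combined; the submitters' processing notes name mm10, bedtools and DESeq without a role. Counts and coverage are not used here.

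Of 22110 promoter rows, 145 repeats of a gene with the same 6 levels were dropped; 249 of the 21965 kept share their levels with another gene. RefSeq (GRCm38.p6) gave a chromosome to 21849. P was set against E, T, I, K and L with limma 3.58.1 in R 4.3.3, and mean levels with an exact permutation over the 6 clones. The limma fit used empirical Bayes with a mean trend, Benjamini-Hochberg over all promoters or all HMRs, and a threshold of 0.05. It was tried on simulated promoters shifted at intermediate levels only, which does not bear on calls at levels near 0. Lone regions were counted at gaps of 0.2, 0.1 and 0.3. Named were the limma calls, the widest gaps (filled to 8 a direction), list members beyond all others by 0.1, the widest P and K gaps, HMRs and windows by gap, Serpine2 and Slpi. Other list members in the text were picked with their values in view. The members and lists were chosen with earlier results of these data known. Alternatives were scale, mean trend, centring, filters, autosomes only, regions above 0 in all clones, threshold, gap and leaving out each clone. Centring was on the mean of each clone, except in limma over promoters, where it was on the median.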

Additional observations from a re-analysis of the deposited data

Results flagged for a closer look

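Of 49 sets of 5 values over the other clones, 4 held 1 clone far from the rest by Dixon's criterion, where chance gives about 1 in 20. At the Olfr1202 promoter, where P was at 0.113, clone I was at 0.534 and the next clone at 0.343. At an HMR on chromosome 4, 53178388 to 53178505, which is 117 bp long, P was at 1.00, clone K at 0.5 and the other 4 clones at 0. At a 2720 bp HMR on chromosome 18, P was at 0.523, clone L at 0.121 and the other 4 at 0. In the window at 118 to 119 Mb of chromosome 13, P was at 0.0938, clone T at 0.122 and the next clone at 0.249. In each of these sets P lay beyond all 5 other clones. The promoter and the HMRs had been named for that gap, so for them this was fixed in advance.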

How the results depend on the processing

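No paired analysis was possible because the 2 rounds share 1 column per clone. The 4 promoter calls became 2 on the logit scale, 0 without a mean trend, 0 after centring, 12 when promoters had to range over 0.1 or more (8 higher and 4 lower in P, none of them among the 4), 2 on autosomes only, and 1 among promoters above 0 in all 6 clones, a setting chosen after seeing the data. Leaving out each other clone gave 3 to 4. The 470 HMR calls, 468 higher and 2 lower, became 445 higher and 48 lower on the logit scale, 0 after centring, 0 with the range filter and 0 among HMRs above 0 in all 6 clones, also chosen after seeing the data, and 551 to 1017 leaving out each clone, the highest without E. The 12 lone promoters became 134 at a gap of 0.1 and 1 at 0.3, and 16 to 20 with 1 clone fewer, which widens the count by construction. The 227 lone autosomal HMRs became 2257 at 0.1, 32 at 0.3, 94 above 0 in all 6 clones, and 313 to 485 with 1 clone fewer. The mean HMR difference ran from -0.00104 without L to 0.0200 without E, and the mean promoter difference from 0.00682 to 0.0174. The cause of these changes was not tested. With the range filter the called promoters included Gsta1, at 0 in both P and E, and Zscan4f, at 0.833 in P and 0.857 in K. P did not lie beyond all others at either. The depth behind each level is unknown, so what it limits cannot be stated.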

Other observations

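HMRs on chromosome X, 4301 in all, were outside the autosomal comparison. P was listed at 0 in 69.4% of them, against 82.8% in K, 70.3% in T, 69.0% in L, 63.5% in I and 44.7% in E. Its mean level there was 0.0963, against 0.225 in E, 0.134 in I, 0.0654 in T, 0.0604 in L and 0.0499 in K. P lay above all others by 0.2 at 45 and below at 8 of these HMRs.

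Genes with several promoters did not always have P apart at each of them. The second of 3 Jdp2 promoters was at 0.281 in P and at 0.151 or less in the others, while the first was at 0.103 in P and 0.104 in E. The second of 2 Il1r1 promoters, of the interleukin 1 receptor gene, was at 0.613 in P and 0.494 or less in the others, while the first had P lowest, at 0.216, against 0.251 or more. The third of 3 Lig1 promoters, of a DNA ligase gene, was at 0.514 in P and between 0.638 and 0.697 in the others, and its other promoters had P inside the range of the others.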
